A study of Mus musculus with 8 samples.

Results

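Cathepsins are the proteases of the lysosome, and 9 of their genes were followed here in cultured mouse osteoclasts, the multinucleated cells that dissolve bone. These were *Ctsk*, *Ctsa*, *Ctsb*, *Ctsc*, *Ctsd*, *Ctsh*, *Ctsl*, *Ctss* and *Ctsz*, chosen by name and matched to the Ensembl identifiers of the table, which makes them 9 of 46517 genes measured. No measured value entered the choice, although the list was drawn up with earlier results of these data known. The table holds another 13 mouse cathepsin genes, which are described only for comparison.

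Osteoclasts were grown from femoral bone marrow of *Elmo1*-/- and *Elmo1*+/- mice, 4 mice of each genotype and 1 RNA-seq library per mouse, to compare their transcripts. ELMO1 is a cytoplasmic adaptor that works with DOCK proteins to activate the GTPase RAC. The deletion is present in every cell of the animal and not in osteoclasts alone, and the controls carry 1 disrupted copy although their library titles read WT. All mice were 6 to 8 weeks old and littermates of both sexes were used. All cultures, of both genotypes, were kept for 7 days with GST-RANKL at 50 ng/ml and 10% medium conditioned by L929 cells, a source of macrophage colony-stimulating factor. Such cultures hold mononuclear macrophages beside the fused cells, and in bulk RNA fewer cells of a type cannot be told apart from less RNA per cell.

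Osteoclasts attach to bone, seal off a space beneath them and acidify it. Cathepsin K, a cysteine protease released into that space, cleaves the triple helix of type I collagen and is a defining product of the mature cell. The other cathepsins mostly stay in endosomes and lysosomes and are shared with macrophages, from which osteoclasts arise. Cathepsins B, L and S are cysteine endopeptidases, and cathepsins C, H and Z trim residues from the ends of proteins. Cathepsin D is an aspartic protease, and cathepsin A is a serine carboxypeptidase that also shields neuraminidase and beta-galactosidase.

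*Ctsk* (ENSMUSG00000028111) lies at chr3:95499256-95509362 on the plus strand of GRCm38. *Ctss* (ENSMUSG00000038642) follows it on the same strand at chr3:95526786-95556403, 17.4 kb away with 0 protein-coding genes between them. The 250 bases before the RefSeq start of each gene (GRCm38.p6, plus strand) are shown because these neighbours ran in opposite directions over the libraries, as described further on. No base is capitalized in these lines. The *Ctsk* window covers chr3:95498960-95499209 and the *Ctss* window chr3:95526536-95526785.
Ctsk: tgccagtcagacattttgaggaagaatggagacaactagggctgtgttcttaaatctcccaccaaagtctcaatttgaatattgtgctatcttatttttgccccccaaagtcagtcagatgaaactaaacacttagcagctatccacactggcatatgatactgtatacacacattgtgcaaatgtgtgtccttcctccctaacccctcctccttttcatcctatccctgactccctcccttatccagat
Ctss: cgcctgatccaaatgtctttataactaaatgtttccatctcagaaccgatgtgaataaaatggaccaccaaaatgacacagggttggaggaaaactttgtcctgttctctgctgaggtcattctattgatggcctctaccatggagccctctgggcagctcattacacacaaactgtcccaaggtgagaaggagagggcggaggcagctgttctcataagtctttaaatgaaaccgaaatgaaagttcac

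The 4 motifs named next were searched on both strands of these windows, of which RefSeq gave 8 for 7 of the 9 genes (*Ctsb* and *Ctsh* had no entry). GAGGAA, the core bound by PU.1, was present at 2 places in *Ctsk*, starting at positions -233 and -58 from the RefSeq start. It was present at 2 in *Ctsc* and at 1 in *Ctss*, and 23.3% of all 32851 windows held it. CACGTG, the E-box read by TFEB and TFE3, was found in *Ctsd*, *Ctsa* and *Ctsl* and in 6.02% of all windows. It occurred in none of the windows of *Ctsk*, *Ctss*, *Ctsc* and *Ctsz*. The AP-1 motif TGANTCA (6.75% of all windows) and CATGTG, another E-box (12.3%), matched no window of the 7 genes. Such matches describe the letters only and are not binding sites. The stretches with CACGTG in capitals are given because they set these 3 genes apart from *Ctsk* by sequence. *Ctsd* held 2 of them, as did 0.429% of all windows. The windows end at RefSeq starts, some of which lie inside the gene bounds given below. In the *Ctsd* window 211 of 250 bases were exon of *Ctsd* itself. In the *Ctsa* window with the motif 164 bases were exon of *Ctsa*, and in the *Ctsl* window 48 were exon of *Ctsl*. The other *Ctsa* window lacked CACGTG, and the printed *Ctsa* stretch runs past the end of its window.
Ctsd, chr7:142388055-142388077, minus strand: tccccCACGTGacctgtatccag
Ctsd, chr7:142387908-142387937, minus strand: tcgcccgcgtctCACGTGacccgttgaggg
Ctsa, chr2:164833749-164833778, plus strand: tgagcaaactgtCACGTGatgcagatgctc
Ctsl, chr13:64370739-64370768, minus strand: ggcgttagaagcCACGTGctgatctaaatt

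The other members lie apart from each other on GRCm38. *Ctsa* (ENSMUSG00000017760) is at chr2:164832873-164841032 and *Ctsz* (ENSMUSG00000016256) at chr2:174427493-174439039. *Ctsc* (ENSMUSG00000030560) is at chr7:88278085-88310888 and *Ctsd* (ENSMUSG00000007891) at chr7:142375911-142388038. *Ctsb* (ENSMUSG00000021939) is at chr14:63122462-63145923, *Ctsh* (ENSMUSG00000032359) at chr9:90054152-90076089 and *Ctsl* (ENSMUSG00000021477) at chr13:64359337-64370890. *Ctsl* shares chromosome 13 with *Elmo1* but lies 43751 kb from it. Some exons overlap those of other genes, namely 10.5% of the exonic bases of *Ctsa* with *Pltp* and 12.8% of those of *Ctsb* with *Fdft1* on the opposite strand, 34.4% of *Ctsd* with *Gm49369* on the same strand and 26.9% of *Ctsl* with the antisense gene *Gm47123*. Smaller overlaps are those of *Ctsa* with *Neurl2* (6.87%), *Ctsl* with the same-strand pseudogene *Gm49230* (6.09%) and *Ctsz* with *Nelfcd* (0.69%). Whether reads were counted by strand is not given in the sources used here, so the counts of these 5 genes can include or lose reads of their neighbours.

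The libraries held 20905502 to 40846651 reads on genes. Values are DESeq2-normalized counts, the reads of a gene divided by 1 size factor per library. *Elmo1* itself, as a check of the labels, had 1423 to 1769 normalized counts in the controls against 274 to 316 in *Elmo1*-/- mice. It was the only gene of 14139 tested that reached an adjusted p under 0.05 between genotypes in limma. Its log2 fold change was -2.44 (SE 0.09, adjusted p = 8.4e-06, limma). Differences of other genes can have gone undetected with 4 mice of each genotype. The libraries numbered 1 and 2 in each genotype stood apart from those numbered 3 and 4 on the first principal component of all tested genes, which held 62.3% of the variance, with *Elmo1*-/- mouse 1 the farthest out. Each genotype was sequenced in 2 experiments of 2 mice, and which mice went together is not stated, so the sets are named here by library number only. All 13 osteoclast markers were present, and their summed normalized count ran from 417777 to 582024 in libraries 1 and 2 and from 773753 to 901034 in libraries 3 and 4. The p-values below, from a fit on genotype alone unless stated, cover the spread between mice of a genotype. Where the library set or the replicate number entered the fit, they cover only the spread left after it. Genotype differences are given as *Elmo1*-/- relative to *Elmo1*+/-.

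*Ctsk* showed no detectable difference between the genotypes, and it varied more than any other member. The normalized counts of *Elmo1*+/- mice 1 to 4 were 154959, 113012, 317524 and 308065. Those of *Elmo1*-/- mice 1 to 4 were 69531, 103706, 328164 and 311600. In both genotypes mice 3 and 4 stood far above mice 1 and 2, the genotypes overlapped, and *Elmo1*-/- mouse 1 was the lowest of all. The means were 223390 ± 104717 and 203250 ± 135564 (SD, n = 4 mice each). On the log2(normalized count + 1) scale, which all fold changes below use, the difference was -0.30 (SE 0.56, 95% confidence interval -1.58 to 0.97, adjusted p = 0.9999, limma). That interval runs from 0.335-fold to 1.96-fold, and true differences of any size within it remain compatible with these values.

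The interval for *Ctsk* narrowed once the library sets were taken into account. That narrowing was built in, because the sets were seen in these data and *Ctsk* differs strongly between them. The set term also assumes the same genotype difference in both sets. With the set as a term it was -0.70 to 0.09 around the same difference, and with the replicate number as a block -0.84 to 0.24. In libraries 3 and 4 alone the difference was 0.03 (95% confidence interval -0.11 to 0.17), with the 4 values from 308065 to 328164. In libraries 1 and 2 alone it was -0.64 (-1.26 to -0.02, unadjusted p = 0.0451, adjusted p = 1.00, limma), where 2.55% of all genes tested had an unadjusted p under 0.05. The difference between these 2 contrasts, tested as an interaction, was 0.67 (SE 0.29, unadjusted p = 0.044, adjusted p = 0.9999, limma), and 0 genes (0%) passed the adjusted threshold for it. Leaving out *Elmo1*-/- mouse 1 turned the genotype difference over both sets to 0.11.

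**Figure D1:**
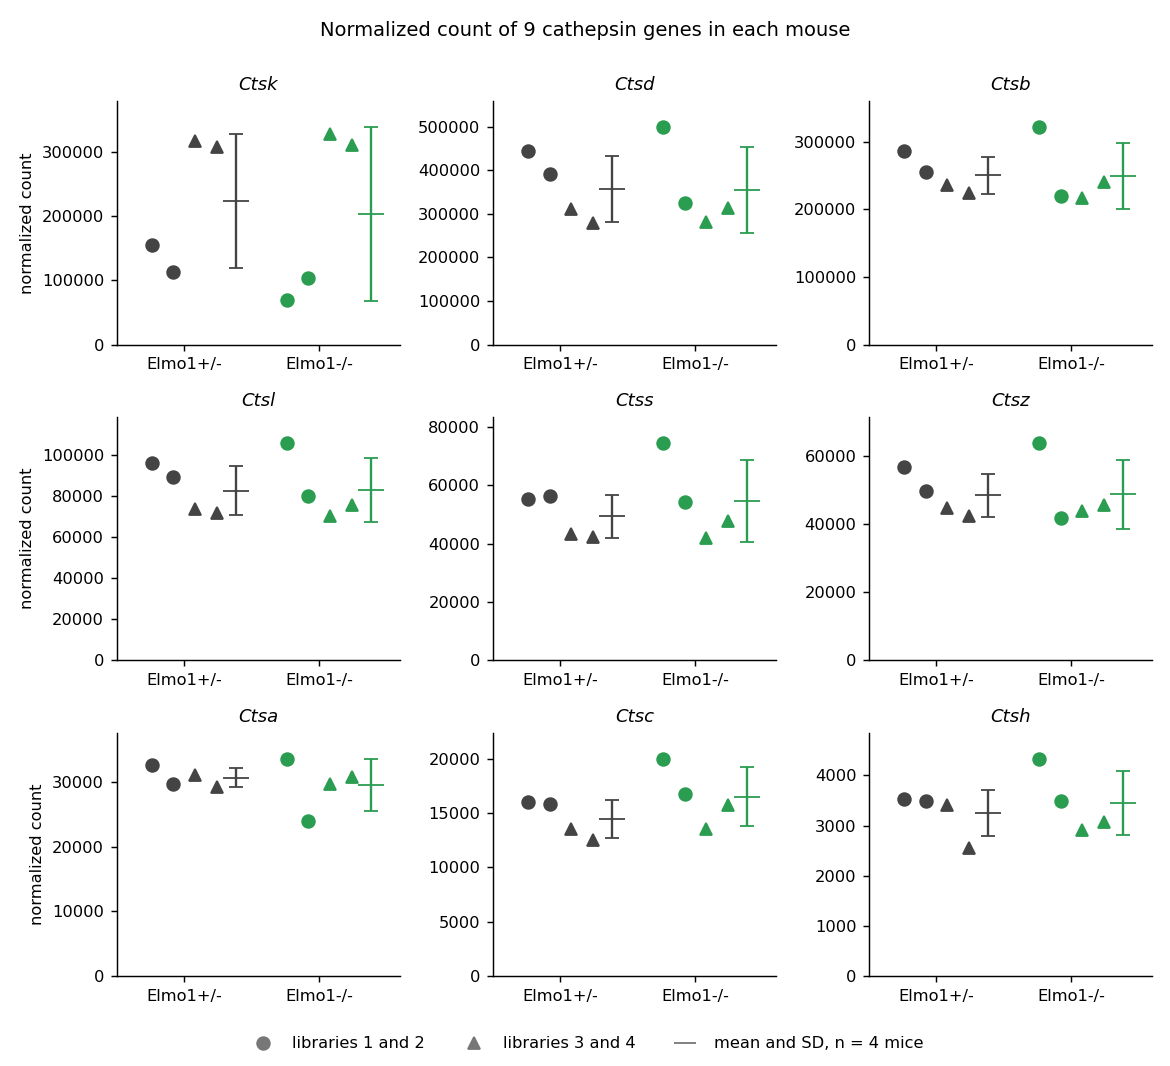
Normalized count (y axis) of the 9 cathepsin genes, 1 panel per gene with an axis from 0. Each point is 1 mouse, dark for *Elmo1*+/- and green for *Elmo1*-/-, circles for libraries 1 and 2, triangles for libraries 3 and 4, and the horizontal mark with a bar is the mean and SD of 4 mice. The genotypes overlap in every panel, and the triangles of *Ctsk* (308065 to 328164) sit far above its circles (69531 to 154959).

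None of the other 8 cathepsins differed detectably between the genotypes either. Of the 9 genes, all of which passed the filter on low values, 0 were called at an adjusted p under 0.05, against 0.00707% of all genes tested. At an unadjusted p under 0.05 there were also 0 of 9, against 0.941%, and in 0 of 9 did the 4 values of one genotype lie outside those of the other, against 0.941%. The fold changes were positive for 3 members and negative for 6, with a median of -0.002 beside -0.003 over all genes tested. Adjusted p-values from limma were 0.9999 for each of the 9. In 0 of 9 were the *Elmo1*-/- values below those of the controls in libraries 1 and 2 and above them in libraries 3 and 4 without overlap, against 2.36% of all genes and 5 of the 13 osteoclast markers.

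The endopeptidases come first. *Ctsd*, in mice 1 to 4 of each genotype, had 444810, 390988, 311929 and 277968 (*Elmo1*+/-) against 498741, 325116, 280642 and 313333 (*Elmo1*-/-). The same order of mice and genotypes is kept for the genes that follow. Mouse 1 was the highest of each genotype and the ranges overlapped almost fully, with a log2 fold change of -0.02 (SE 0.21, 95% confidence interval -0.50 to 0.46). *Ctsb*, whose product is both an endopeptidase and a dipeptidyl carboxypeptidase, had 285656, 255126, 235622 and 224316 against 321450, 219583, 216546 and 240454. The *Elmo1*+/- values of *Ctsb* lay inside the range of the *Elmo1*-/- values, and the log2 fold change was -0.02 (SE 0.15, -0.35 to 0.32).

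*Ctsl* encodes a potent lysosomal endopeptidase, and its counts were 96088, 89395, 73592 and 72002 in *Elmo1*+/- mice and 105983, 80329, 70235 and 75686 in *Elmo1*-/- mice. Its log2 fold change was -0.002 (SE 0.15, -0.35 to 0.34), and mice 1 and 2 were above mice 3 and 4 in both genotypes. *Ctss*, whose product stays active at neutral pH and processes the invariant chain in antigen-presenting cells, had 55352, 56301, 43478 and 42197 against 74522, 54242, 41873 and 47946. *Elmo1*-/- mouse 1 stood above all others while the other values overlapped, and the log2 fold change was 0.13 (SE 0.18, -0.29 to 0.54).

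Among the exopeptidases, *Ctsz* (a carboxypeptidase, also named cathepsin X) had 56911, 49699, 44860 and 42451 in *Elmo1*+/- mice and 63886, 41769, 43799 and 45795 in *Elmo1*-/- mice. The ranges overlapped, and the log2 fold change was -0.002 (SE 0.15, -0.35 to 0.34). *Ctsa* was the steadiest member, with 32544, 29722, 31119 and 29230 against 33573, 24031, 29745 and 30820. Its highest and its lowest library were both *Elmo1*-/- (mice 1 and 2), and its log2 fold change was -0.06 (SE 0.11, -0.31 to 0.18).

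*Ctsc*, the dipeptidyl peptidase that activates the serine proteases of granules, had 15988, 15853, 13566 and 12487 in *Elmo1*+/- mice. In *Elmo1*-/- mice it had 19981, 16749, 13502 and 15749, so that 11 of the 16 pairs of mice had the *Elmo1*-/- value above, but the ranges overlapped. The log2 fold change of 0.18 (SE 0.13, -0.12 to 0.48) was the most positive of the 9. With the replicate number as a block its interval was 0.01 to 0.36 (unadjusted p = 0.0411, adjusted p = 0.9998, limma), and 2.75% of all genes reached an unadjusted p under 0.05 in that fit. With the library set as a term its unadjusted p was 0.0393, where 2.91% of all genes did so.

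*Ctsh*, an aminopeptidase, was the lowest member with 3541, 3486, 3403 and 2562 in *Elmo1*+/- mice and 4333, 3494, 2907 and 3078 in *Elmo1*-/- mice. *Elmo1*+/- mouse 4 lay below the other 7 mice, the ranges overlapped, and the log2 fold change was 0.08 (SE 0.15, -0.25 to 0.42). Even here at least 2235 reads stood behind each value.

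**Figure D2:**
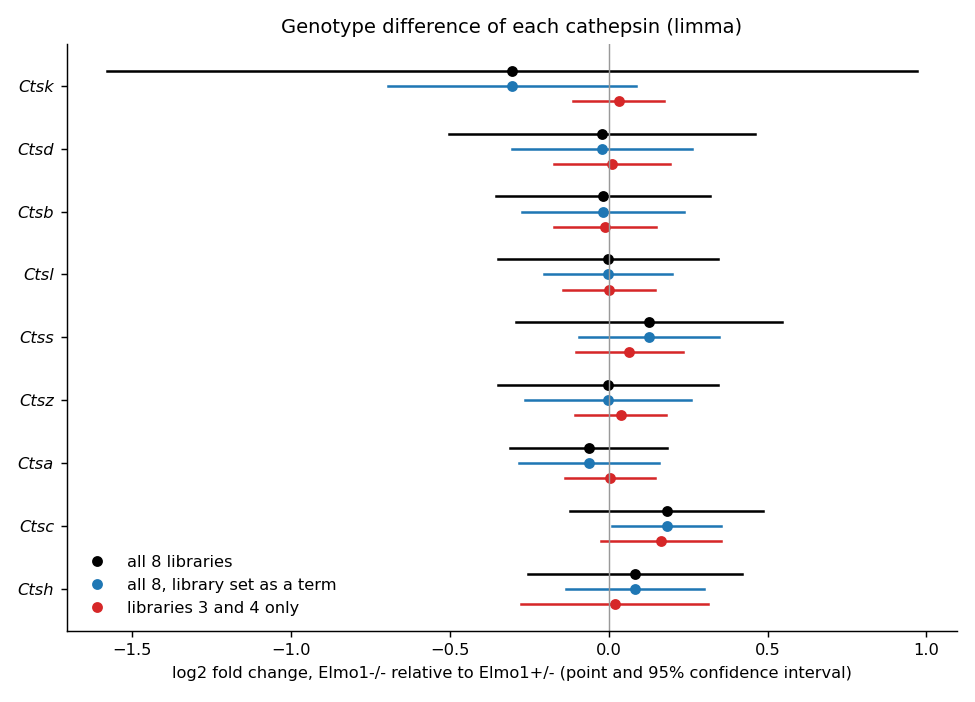
Log2 fold change (x axis, *Elmo1*-/- relative to *Elmo1*+/-) of the 9 cathepsins with 95% confidence intervals from limma, for all 8 libraries (black), with the library set as a term (blue) and in libraries 3 and 4 only (red). Black intervals all span 0 and that of *Ctsk* is the widest (-1.58 to 0.97), narrowing to -0.11 to 0.17 in libraries 3 and 4.

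The level of a gene can be set beside that of another only per length, here as the mean normalized count per kilobase of merged exons over the 8 libraries. *Ctsd* came first with 151187 ± 34469 and *Ctsk* followed with 141085 ± 74509 (SD, n = 8). These neighbours did not differ beyond their spread, *Ctsd* being higher in 4 of 8 libraries, while *Ctsk* exceeded *Ctsb*, the next, in 7 of 8. *Ctsb* (41290 ± 6057) and *Ctss* (38283 ± 8017) did not differ beyond their spread either, with *Ctsb* higher in 6 of 8. Below them the order was *Ctsz* (33759), *Ctsl* (12778), *Ctsa* (6384), *Ctsc* (2666) and *Ctsh* (745), and each of these steps held in 8 of 8 libraries. The place of *Ctsl* rests on its exon length. Its principal transcript of 1971 bases, in place of 6489 merged exonic bases, raised it to 42067 and from place 6 to place 4. The closeness of *Ctsb* and *Ctss* rests on length too. With the longest transcripts as lengths *Ctsb* exceeded *Ctss* in 8 of 8 libraries, beyond their spread.

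Together the 9 genes took 2.83% to 3.56% of all normalized counts of a library. *Ctsk* alone took 0.208% to 1.05%, and the other 8 took 2.23% to 3.36%. *Ctsk* was at most 31.9% of the counts of the 9 genes, and the lysosomal and macrophage-shared cathepsins made up the remainder in every library.

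*Ctsk* and most of the other cathepsins ran in opposite directions over the libraries. *Ctsk* was 1.58 higher on the log2 scale in libraries 3 and 4 than in libraries 1 and 2 (2.98-fold), with 110302 ± 35154 against 316338 ± 8797 (SD, n = 4 libraries each) and no overlap. Of the other 8, *Ctsd* (-0.47), *Ctss* (-0.44), *Ctsl* (-0.34), *Ctsh* (-0.31) and *Ctsc* (-0.31) were lower in libraries 3 and 4 without overlap. *Ctsz* (-0.25) and *Ctsb* (-0.23) were lower by mean with overlap, and *Ctsa* differed by 0.02. The sets were seen in the same data and the members are among the genes that separate them, so this is a description without a test. Over all genes tested, 18.1% were higher in libraries 3 and 4 without overlap and 15.8% were lower, 34% in all, and the median difference was -0.01. With library totals made equal, *Ctsc* overlapped and the other 4 that were lower remained so.

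*Elmo1*-/- mouse 1 showed the contrast most sharply. It had the highest count of all 8 libraries for each of the 8 other cathepsins and the lowest for *Ctsk*. Over all genes tested it was the highest library for 27.1% and the lowest for 28.3%. Without that mouse the library difference of *Ctsk* was 1.37 and that of *Ctsd* was -0.38. The highest library exceeded the lowest 4.72-fold for *Ctsk* but only 1.397-fold (*Ctsa*) to 1.79-fold (*Ctsd*) for the others. Within libraries 3 and 4 the SD of *Ctsk* was 0.04 on the log2 scale, and within libraries 1 and 2 it was 0.48.

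**Figure D3:**
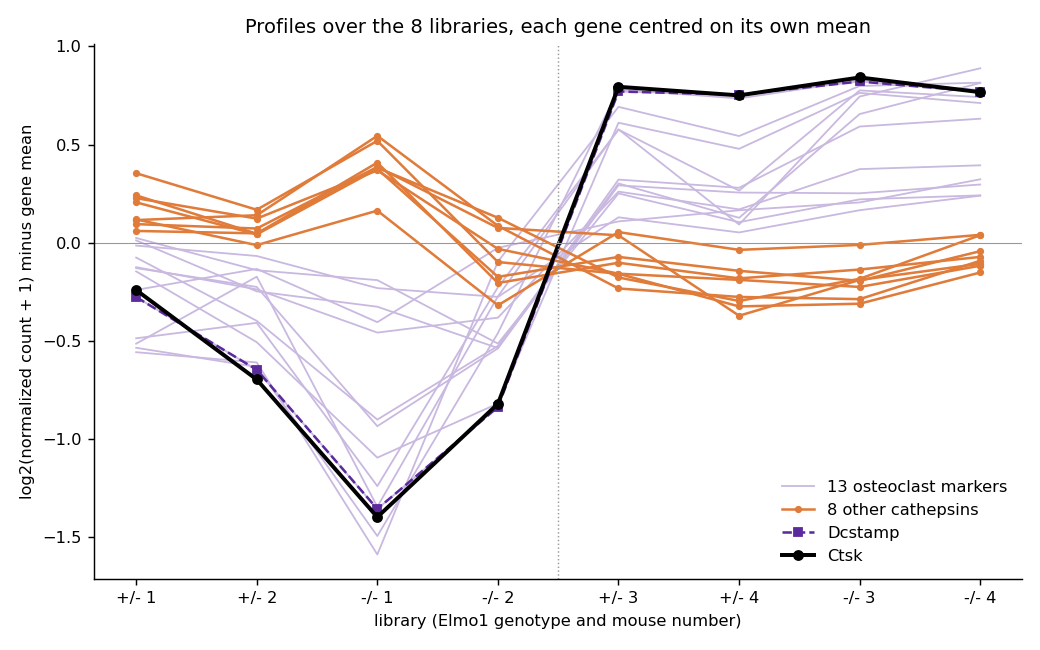
Log2(normalized count + 1) minus the mean of the gene (y axis) in each of the 8 libraries (x axis, *Elmo1* genotype and mouse number), with libraries 1 and 2 left of the dotted line and libraries 3 and 4 right of it. *Ctsk* (black) and *Dcstamp* (dashed) run together (root-mean-square difference 0.03) and rise to the right with the 13 osteoclast markers (pale lines), while the 8 other cathepsins (orange) lie mostly lower on the right. Lines join the values of a gene and imply no order of libraries.

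The share of *Ctsk* in the summed level per kilobase of the 9 genes followed from this. Mice 1 to 4 had 23.1%, 19.5%, 45.1% and 46.3% among controls. *Elmo1*-/- mice had 10.5%, 20.6%, 47.9% and 44.1%. The genotypes overlapped, with means of 33.5% ± 14.2 and 30.7% ± 18.1 (SD, n = 4 mice each), and the difference of -2.76 percentage points was small beside the spread. With 1 mouse left out it ran from -8.46 (without *Elmo1*-/- mouse 3) to 3.99 (without *Elmo1*-/- mouse 1), and it was -5.76 in libraries 1 and 2 and 0.24 in libraries 3 and 4. The library sets did not overlap, with 18.4% ± 5.49 in libraries 1 and 2 and 45.8% ± 1.64 in libraries 3 and 4. With the principal transcripts as lengths the lowest and highest shares were 8.82% and 42.8%.

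Taken against each partner within a library, which removes the scaling, the log2 ratio of *Ctsk* rose by 1.55 (to *Ctsa*) to 2.05 (to *Ctsd*) from libraries 1 and 2 to libraries 3 and 4, and the sets did not overlap for any of the 8 ratios. The same ratios were lower in *Elmo1*-/- mice by mean, with differences from -0.24 (*Ctsa*) to -0.49 (*Ctsc*), and the genotypes overlapped for all 8. That direction rested on *Elmo1*-/- mouse 1, since without it the 8 differences ran from 0.03 (*Ctsc*) to 0.31 (*Ctsd*). The log2 ratio of normalized counts of *Ctsk* to its neighbour *Ctss* was 1.49, 1.01, 2.87 and 2.87 in *Elmo1*+/- mice and -0.10, 0.94, 2.97 and 2.70 in *Elmo1*-/- mice. It was below 0 in *Elmo1*-/- mouse 1 alone.

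**Figure D4:**
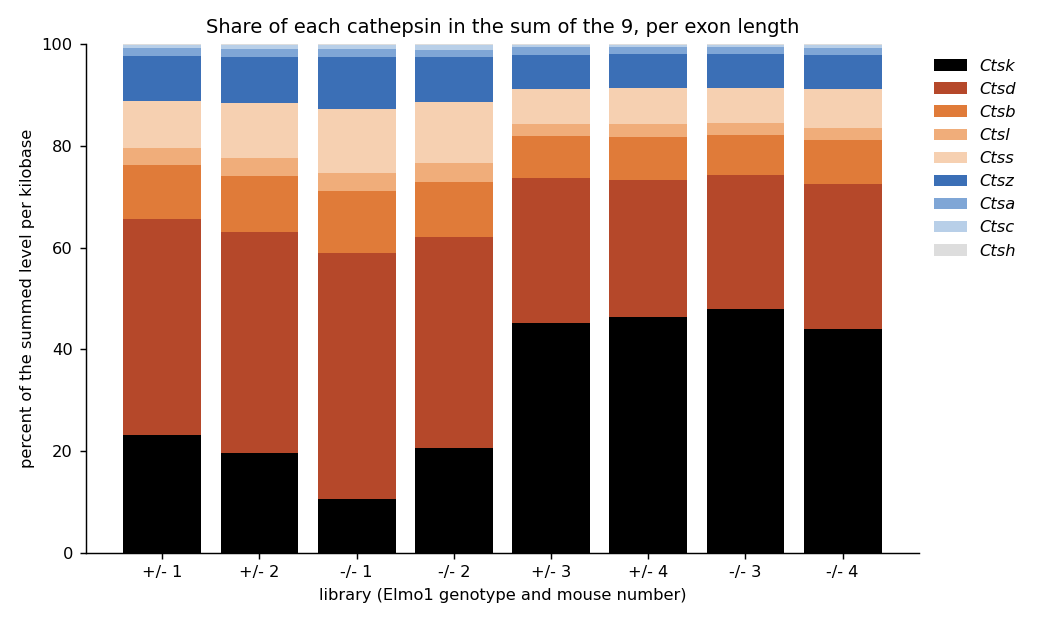
Percent of the summed normalized count per kilobase (y axis from 0 to 100) taken by each of the 9 cathepsins in each library (x axis, *Elmo1* genotype and mouse number). The black part, *Ctsk*, is 10.5% to 23.1% in the 4 libraries numbered 1 and 2 and 44.1% to 47.9% in those numbered 3 and 4, in both genotypes.

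Over the libraries the other 8 cathepsins differed little from each other, and each of them also varied little itself. The root-mean-square difference between the centred log2 profiles of 2 genes was 0.04 to 0.27 for the 28 pairs among them, with a median of 0.13 and *Ctsb* and *Ctsz* as the closest pair. *Ctsa* was the least alike, with 0.27 to *Ctss* and 0.25 to *Ctsd*. Between *Ctsk* and each of the 8 it was 0.84 to 1.09, beside a median of 0.86 between *Ctsk* and all genes tested. These profiles share the same 8 libraries and their scaling, so the values describe likeness only.

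By the same measure the 5 genes most like *Ctsk* among all those tested were *Dcstamp* (0.03), *Ckb* (0.07), *4930523C07Rik* (0.08), *Gm20056* (0.09) and *Cpe* (0.10), while the median over all genes was 0.86. *Gm20056* is annotated as a processed pseudogene, and *4930523C07Rik* overlaps *4930562F07Rik* on the opposite strand. The counts of both can include reads of other genes. *Dcstamp* encodes the transmembrane protein needed for fusion of osteoclast precursors, and *Ckb* encodes the brain-type creatine kinase. *Dcstamp* had 7661, 5927, 15830 and 15653 in *Elmo1*+/- mice and 3626, 5196, 16399 and 15816 in *Elmo1*-/- mice, the same highs and lows as *Ctsk*. *Ckb* had 47757, 34482, 92502 and 86884 against 20482, 28030, 96670 and 84052. The same 5 genes came first with equal library totals and with TMM scaling.

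The 13 osteoclast markers moved together over the libraries. All 13 were higher in libraries 3 and 4 without overlap (18.1% of all genes were), with a median difference of 0.95, and 0 of 13 were called between genotypes. *Atp6v0d2*, a subunit of the proton pump, was 2.95-fold higher, *Acp5*, the tartrate-resistant phosphatase, 2.43-fold and *Mmp9*, a matrix metalloprotease, 1.52-fold. Of the 11 macrophage markers, 5 were lower there without overlap (4 with equal totals, against 15.8% of all genes) and 0 higher. Their summed count ran from 433554 to 468408 in libraries 1 and 2 and from 366522 to 460179 in libraries 3 and 4, and from 366522 to 464843 in *Elmo1*+/- and 382478 to 468408 in *Elmo1*-/- mice. *Mrc1*, the mannose receptor, was at 0.458-fold, and *Adgre1*, *Cd68* and *Marco*, the highest per length, overlapped. How far the share of fused cells moved with *Ctsk* and the other cathepsins was not tested.

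**Figure D5:**
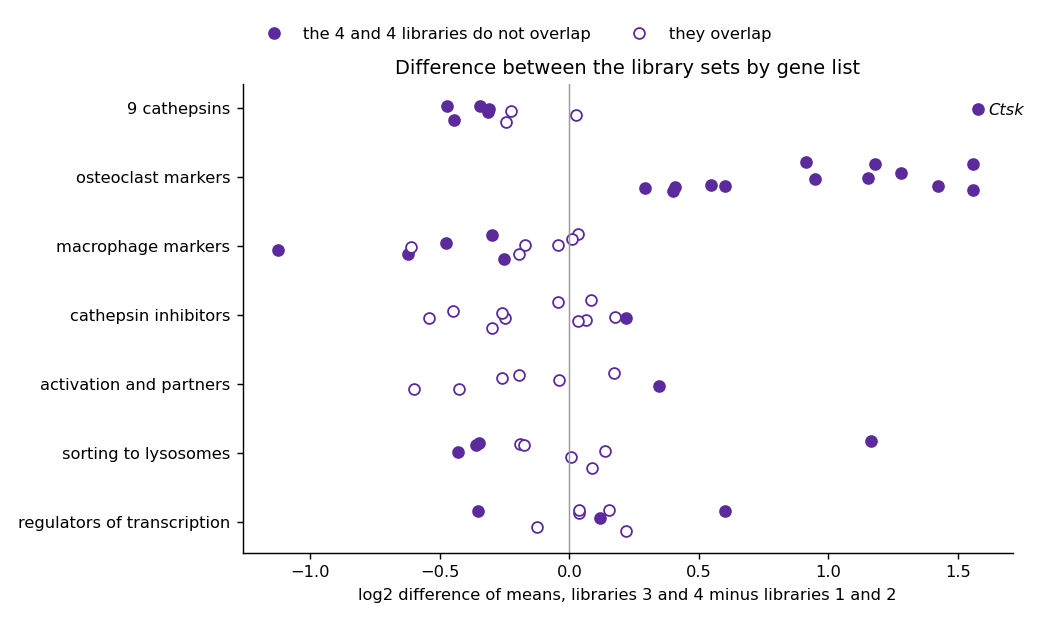
Difference of mean log2 values between libraries 3 and 4 and libraries 1 and 2 (x axis) for each tested gene of 7 lists (y axis, with vertical scatter for legibility only). Filled points are genes whose 4 and 4 libraries do not overlap. *Ctsk* (1.58) stands with the 13 osteoclast markers and away from the other cathepsins (-0.47 to 0.02).

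Markers of other cell types were mostly low. Neutrophil markers summed to 14431 to 27721 per library, mostly from *S100a8*, which was also the only 1 of 9 tested that was lower in libraries 3 and 4 without overlap. Dendritic cell markers (1212 to 2171, 7 tested) and stromal markers (1115 to 1912, 7 tested) were lower still. Without overlap, 1 dendritic cell marker was higher in libraries 3 and 4 and 2 were lower. Of the stromal markers 0 were so in either direction, though some differed by mean. Over all genes tested 18.1% were higher without overlap and 15.8% were lower. Of lymphoid markers only *Cd4* was tested and *Ncr1* was at 0 in every library, and erythroid markers summed to at most 5.68. The highest per length of each list were *S100a8*, *S100a9* and *Lcn2* (neutrophil), *Itgax*, *H2-Ab1* and *Cd74* (dendritic cell), and *Col1a1*, *Col1a2* and *Dcn* (stromal). For the lymphoid list they were *Cd4*, *Cd79a* and *Klrb1c*, and for the erythroid list *Hba-a1*, *Hbb-bt* and *Alas2*. *Cd79a*, *Klrb1c*, *Ncr1* and the erythroid genes did not pass the filter on low values and were not tested. None of the tested genes of these lists was called between the genotypes. The part of these cell types in the library difference was not tested.

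Of the other cathepsin genes, 7 of 13 were at 0 in all libraries and 4 passed the filter, with 0 called. *Ctso* (1382 to 1642 per library) was the highest and *Ctsf* (216 to 356) came next. *Ctsg*, a serine protease of primary granules, had 34.95, 23.73, 4.57 and 77.09 in *Elmo1*+/- mice and 19.87, 11.97, 20.03 and 14.78 in *Elmo1*-/- mice. *Elmo1*+/- mice held both its highest and its lowest value, and its log2 fold change was -0.53 (SE 0.69, adjusted p = 0.9999, limma).

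Inhibitors of cathepsins were expressed as well. There were 19 of them among the genes measured, of which 11 were tested and 0 called. Per kilobase the highest were *Cstb*, the intracellular stefin B (44841), *Stfa3*, another stefin (17331), and *Cst3*, the secreted cystatin C (14321). *Cstb* had 26726, 24961, 29773 and 30736 in *Elmo1*+/- mice and 24722, 23585, 29071 and 26737 in *Elmo1*-/- mice. It was higher in libraries 3 and 4 without overlap (1.16-fold), as 1 of 11 tested, against 18.1% of all genes. *Stfa3* had 8811, 6592, 7688 and 8128 against 6112, 6446, 7441 and 5905, a log2 fold change of -0.27 (SE 0.11, unadjusted p = 0.037, adjusted p = 0.9999, limma) with overlapping genotypes, where 0.941% of all genes had an unadjusted p under 0.05. It belongs to a cluster of near-identical stefin genes between which reads can be split, so its counts are uncertain.

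Genes that activate or accompany cathepsins gave 0 calls of 7. *Psap* (84532 per kilobase), the saposin precursor that binds cathepsin D, and *Grn* (19074), progranulin, were among the highest, and *Hexa* completed the top 3. *Hexa*, a lysosomal glycosidase gene, was higher in libraries 3 and 4 without overlap (1.27-fold), as were 18.1% of all genes tested. In this it was unlike the 8 cathepsins other than *Ctsk*. *Lgmn*, the legumain that matures several of them, was at 0.660-fold with overlap.

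Among 9 sorting genes 0 were again called. *Gnptab*, which makes the mannose 6-phosphate tag of lysosomal enzymes, was 2.24-fold higher in libraries 3 and 4 without overlap. *Nagpa*, *Scarb2* and *Lamp1* were lower there without overlap (0.784-fold, 0.779-fold and 0.743-fold). That makes 1 of 9 higher and 3 lower, against 18.1% and 15.8% of all genes tested. *M6pr*, the mannose 6-phosphate receptor, and *Lamp2* (0.887-fold) overlapped. Of 8 regulators, 0 were called. *Nfatc1*, the RANKL-induced factor that drives osteoclast genes, was 1.52-fold higher and *Spi1*, which encodes PU.1, 1.09-fold higher. *Tfe3*, a lysosomal regulator, was at 0.782-fold. Each was without overlap, 2 of 8 higher and 1 lower, beside the same shares of all genes. *Fos* (1.16-fold), *Jun* (1.03-fold) and *Tfeb* (0.918-fold) overlapped.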

How the data were processed

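RNA of 8 cultures was sequenced as 75 bp paired-end reads. The submitters' processing notes name FastQC, STAR, featureCounts and DESeq2, and no source used here gives the genome build. Deposited signal values are counts that the authors divided by DESeq2 size factors. The authors' deposited log2 fold changes, standard errors, test statistics (a score) and p-values were not used. Identifiers were matched to GENCODE mouse release M21 on GRCm38 (46005 matched, 512 did not). Divided by the smallest step of their library, 100% of the values came out whole with a tolerance of 0.01 read.

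Genotype differences were tested with limma 3.58.1 (R 4.3.3, trend and robust settings) after adding a pseudocount of 1 and taking log2. Genes had to reach a value of 10 in 4 or more libraries, which 14139 did, and p-values were adjusted over these by the Benjamini-Hochberg method with a threshold of 0.05. The scripts were tested on simulated data. Count tests (edgeR 4.0.16 and DESeq2 1.42.0) used the reads of 7 libraries, leaving out *Elmo1*+/- mouse 2 as a precaution, because its step is close to 1. No 2 libraries of a genotype were copies (chi-square per gene 8.72 to 190 among these 7). Replicate numbers, from the titles, were taken to pair the libraries for the replicate block, which is an assumption, since no source used here states a pairing. Same-numbered libraries deviated together (correlation across genes 0.156 to 0.703, all over 0.1). However, 3 pairs with other numbers exceeded a same-numbered pair of theirs: *Elmo1*+/- mouse 2 with *Elmo1*-/- mouse 1 (0.691), 3 with 4 (0.614) and 4 with 3 (0.561). Pairs within a library set all correlated positively and pairs across the sets negatively, so these values follow the sets and cannot show the pairing.

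Alternatives were count tests, equal totals, TMM, no filter, a minimum of 50, pseudocounts of 0.5 and 8, limma without trend and robust settings, each mouse left out, the replicate block, and the library sets as a term, as subsets and as an interaction. Named were the 9 members, *Elmo1*, the 5 genes most like *Ctsk*, and for each list the 3 highest per length. *Lgmn*, *Mrc1*, *Nfatc1* and others beyond that rule were chosen after their values were seen. One gene of the lists is not reported here. The members and lists were chosen with earlier results of these data known. Sequences are from RefSeq (GRCm38.p6), with positions counted back from the RefSeq start of the gene. Figures were drawn with matplotlib 3.10.9.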

Additional observations from a re-analysis of the deposited data

Results flagged for a closer look

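In 84 groups of 4 mice, a mouse was marked where its gap to the nearest other mouse took most of the range of its group, which chance does in about 1 group of 20, or 4.2 of 84. All marked mice are listed here, and their number is close to that expected by chance. Of the members, *Ctsh* in *Elmo1*+/- mouse 4 was marked, with 2562 beside 3403, 3486 and 3541. *Psap* in *Elmo1*-/- mouse 1 had 311651 beside 188815, 194412 and 203866. In the same mouse *S100a9*, a neutrophil marker, had 4039 beside 874 to 1407, and *Cd74*, the invariant chain, had 1489 beside 601 to 711. *Lamp2* in *Elmo1*-/- mouse 3 had 13743 beside 16119 to 16599.

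The mean genotype differences of the osteoclast markers pointed in opposite directions in the library sets, with 2 libraries of each genotype per set. These markers moved together over the libraries, so they are not separate observations. For some, the lower mean in libraries 1 and 2 rested on *Elmo1*-/- mouse 1. *Elmo1*-/- mouse 2 had the highest value of libraries 1 and 2 for *Atp6v0d2* (10556), *Car2* (5607), *Ocstamp* (2131) and *Tnfrsf11a* (2423). By mean, 13 of 13 were lower in *Elmo1*-/- mice in libraries 1 and 2 and higher in libraries 3 and 4 (12 of 13 with equal totals or TMM scaling, the exception being *Clcn7*), against 28.3% of all genes tested. For 5 of 13 the genotypes did not overlap within either set, against 2.36% of all genes. *Acp5* had a log2 fold change of -0.63 in libraries 1 and 2 and 0.19 in libraries 3 and 4, a difference of 0.82 (SE 0.21). *Mmp9* had -0.24 and 0.17 (difference 0.41, SE 0.16), and *Itgb3*, the integrin subunit of the osteoclast's attachment, had -0.48 and 0.52 (difference 1.00, SE 0.21). *Oscar* had -0.56 and 0.31 (difference 0.87, SE 0.17), and *Ostm1* -0.21 and 0.11 (difference 0.32, SE 0.11). *Cx3cr1*, 1 of 11 macrophage markers, ran the other way without overlap, with 1.16 and -0.30 (difference -1.46, SE 0.41). By mean, 5 of those 11 pointed in the same directions as the osteoclast markers, 0 of them without overlap. The 6 differences given here with an SE each had an adjusted p of 0.9999 in the limma interaction test over all genes.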

How the results depend on the processing

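No alternative brought any of the 9 cathepsins to an adjusted p under 0.05 (range 0.937 to 1.00), and each had at least 2235 reads in every library. The count of genes called, 1 with all libraries, was 2 with edgeR and 4 with DESeq2 on 7 libraries, 2 in libraries 3 and 4 only, and 1 to 2 with 1 mouse left out (2 without *Elmo1*+/- mouse 2). The interaction count, 0 with all libraries, was up to 239 with 1 mouse left out (188 without *Elmo1*-/- mouse 1, 239 without *Elmo1*-/- mouse 2), where 1 arm of a set holds a lone library assumed to vary like the others. With the replicate block, which follows the assumed pairing of the numbers, the count of genes called stayed at 1 and no call changed.

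The sign of small differences was not stable, and its cause was not tested. Leaving out 1 mouse at a time gave log2 fold changes of -0.64 to 0.11 for *Ctsk*, -0.13 to 0.033 for *Ctsa*, -0.15 to 0.049 for *Ctsb*, -0.20 to 0.094 for *Ctsd*, -0.032 to 0.16 for *Ctsh*, -0.13 to 0.073 for *Ctsl*, -0.034 to 0.24 for *Ctss* and -0.14 to 0.078 for *Ctsz*. In libraries 3 and 4 only, the sign turned for *Ctsk* (0.032), *Ctsa* (0.0056), *Ctsd* (0.010), *Ctsl* (0.0023) and *Ctsz* (0.037). On 7 libraries edgeR and DESeq2 gave 0.0044 and 0.0043 for *Ctsb*, 0.039 and 0.038 for *Ctsd*, 0.043 and 0.043 for *Ctsl*, and 0.021 and 0.021 for *Ctsz*. With equal totals *Ctsl* was at 0.0043 and *Ctsz* at 0.0041. *Ctsc* kept its sign in every alternative run.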
